A study of Mus musculus with 2 samples.

Results

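Among cells sorted as group 3 innate lymphoid cells (ILC3s) from the gut of aged mice, a sizeable share carried transcripts of an alpha beta T cell receptor. The cells described here are the Trac T cells without Cd4 transcripts and with little Ccl5 and Gzma, named the gated T cells below. A cell was counted when it held at least 1 unique molecular identifier (UMI, 1 captured transcript) of Trac, the constant gene of the T cell receptor alpha chain, and at least 1 UMI of Cd3d, Cd3e and Cd3g in sum. It also had no UMI of Trdc, the delta chain constant gene, no UMI of Cd4, and fewer than 2 UMIs of Ccl5 and Gzma together. This rule took 515 cells in each of the 2 replicates, 1030 of the 7177 cells kept in all. The gate uses measured values, so levels of these 8 genes are a description of the choice and carry no test.

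The study measured transcripts of single cells on the BD Rhapsody system, in which cells of several samples are marked with sample tags, pooled and read together. Both replicates form 1 aged group. They were ILC3s taken by sorting from the lamina propria of the small intestine, and the mice were C57BL/6 males of 18 months. The labels name neither a genotype nor the surface markers of the sort, and they do not say whether the replicates came from separate animals. Cells are not replicates, so every comparison sets sums over cells of 1 sample against sums over other cells of the same sample, with n = 2 samples. P-values therefore set a ratio only against a spread between these 2 samples that is largely shared across genes and may be technical. A gene can pass although its ratio differed between the 2 samples, even in sign. Where samples of 2 sets are said not to overlap, that describes 2 values per set, mostly in genes chosen by ratio or test. It is no further test, and the share of all tested genes without overlap was not worked out. Gating on these genes also parts any gene expressed together with them, and a p-value here gives no independent evidence of a difference between the sets.

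A T cell receptor of the alpha beta kind pairs a Trac chain with a Trbc1 or Trbc2 chain and signals through the CD3 proteins and the kinase Lck. Besides conventional CD4 and CD8 T cells, mouse tissues hold innate-like alpha beta T cells, which often lack CD4 and CD8, carry the transcription factor encoded by Zbtb16 and use a narrow choice of alpha chain segments. CD40 ligand, encoded by Cd40lg, is a T cell signal to B cells and dendritic cells. Ccr2 encodes a chemokine receptor that draws cells into inflamed tissue, and Blk encodes a Src family kinase known from B cells and from IL-17-producing gamma delta T cells. ILC3s carry no antigen receptor and are known for Il22, Kit and, in one subset, Ncr1.

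The gated T cells made up 15.4% of kept cells in replicate 1 (exact Clopper-Pearson 95% interval 14.2 to 16.7) and 13.4% in replicate 2 (12.3 to 14.5). Of all cells with both Trac and CD3 UMIs they were 71.6% (68.2 to 74.9) and 80.5% (77.2 to 83.5) in replicates 1 and 2. These intervals cover counting error only. The median gated T cell held 2028 and 1795 UMIs, against 1845 and 1646 UMIs in all other kept cells and 2143.5 and 1933 UMIs in the other Trac CD3 cells. Depth was lower in replicate 2 in each of these 3 sets. The median mitochondrial share of UMIs was 9.68% and 9.21% in gated T cells, against 8.69% and 7.28% in other Trac CD3 cells, 8.06% and 6.46% in Cd4-positive Trac T cells and 8.74% and 8.06% in all other kept cells. It was higher in gated T cells within each replicate, and its part in the results was not tested.

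The edge of the gate lay in a thinly counted range. A single Trac UMI was all that 188 and 180 of the gated T cells had in replicates 1 and 2, a single CD3 UMI was all that 79 and 174 had, and 29 and 69 had only 1 of each. One UMI of Ccl5 or Gzma was present in 52 and 13 of them. Just outside, 11 and 4 cells had exactly 2 such UMIs, 22 and 14 had exactly 1 Cd4 UMI and 7 and 13 had exactly 1 Trdc UMI. Another 280 and 335 cells met every condition except the Trac UMI, and 150 and 232 met every condition except the CD3 UMI. A Trac UMI was also found in 7.40% and 9.70% of CD3-negative cells, so some cells enter or leave the gate by counting alone.

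The label of a T cell was checked against genes outside the gate. At least 1 UMI of Trbc1 or Trbc2 was found in 91.3% and 81.9% of the gated T cells in replicates 1 and 2. These genes are no clean marker, since Trbc2 was found in 83.7% and 76.1% of gated T cells (64.9% and 60.9% thinned), in 83.8% and 83.2% of other Trac CD3 cells and in 44.4% and 44.2% of CD3-negative cells. In cells with fibroblast transcripts its share was 30.3% and 14.3%. The gate gene Cd3e, a signalling chain of the receptor complex, was found in 87.0% and 73.4% of them. Some markers of gamma delta T cells were seldom found, and a UMI of Sox13, Cd163l1 or Trdv4 occurred in only 4 and 7 gated T cells. The gate, which asks for no Trdc UMI, itself favours this. Others were common, with a UMI of a gamma chain constant gene in 79.4% and 62.9%. Of 8 gamma delta genes tested against all other kept cells, 4 were higher and 4 lower in gated T cells. Over all genes tested in that comparison, 6.72% were higher and 7.72% lower (edgeR, adjusted p below 0.05). Cd8a or Cd8b1 UMIs were found in 67 and 30 of them (13.0% and 5.83%), so most held no coreceptor transcript at this depth. Foxp3, the factor of regulatory T cells, was seen in 1 gated T cell of replicate 1 and in none of replicate 2.

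RNA of other cell types differed between the replicates and was present in every set of cells. A UMI of any of 10 stromal marker genes was found in 49.3% of gated T cells in replicate 1 and 4.47% in replicate 2, and their summed level was 3856 and 65.3 CPM (UMIs of the genes scaled to 1000000 UMIs of the set). In replicate 2 the stromal genes Pdgfra and Lum had no UMI in gated T cells. Any of 10 B and plasma cell genes was found in 50.3% and 8.54% at 3259 and 507 CPM, with Pax5 at 0 in both replicates. Any of 12 myeloid genes was found in 55.5% and 36.5% at 879 and 332 CPM, with Csf1r at 0 in both. Of cell indices, 303 occurred in both libraries and 10 of them among cells of the replicates' own tags. The number expected by chance was not worked out, so these counts are no evidence of RNA shared between libraries. Genes of these lists are also among the calls below. Igkc, Igha, Col1a1 and Cst3 were higher in gated T cells than in other Trac CD3 cells, Col1a1, Adamdec1, Bgn and Cst3 than in Cd4-positive Trac T cells, and Col1a1 and Col3a1 are 2 of the 15 genes higher than in gamma delta T cells. These calls rest on replicate 1 for Col1a1 against other Trac CD3 cells, with 821 and 6.03 CPM in gated T cells, against 466 and 11.2 CPM, and for Col3a1 against gamma delta T cells, with 575 and 10.05 CPM, against 269 and 14.5 CPM, since both were lower in gated T cells in replicate 2. The part of this foreign RNA in the results was not tested.

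Of the genes outside the gate that mark these cells, Cd40lg, Ccr2 and Blk were chosen as markers on earlier results of these data, so their levels are a description. A Cd40lg UMI was found in 56.7% (52.3 to 61.0) and 42.7% (38.4 to 47.1) of gated T cells, a Ccr2 UMI in 33.2% and 39.0%, and a Blk UMI in 24.9% and 29.9%. A UMI of Zbtb16 was found in 19.6% and 41.2%. Cells with fibroblast transcripts, which should lack these genes, numbered only 99 and 7. They had a Cd40lg UMI in 6.06% and 0%, a Ccr2 UMI in 8.08% and 14.3%, a Blk UMI in 6.06% and 0%, and a Zbtb16 UMI in 11.1% and 14.3%, at medians of 2129 and 2251 UMIs. In replicate 1 the shares of Cd40lg, Ccr2 and Blk in gated T cells lay above that level and beyond its intervals, and for Zbtb16 19.6% (16.3 to 23.3) stood against 11.1% (5.68 to 19.01), intervals that overlap. In replicate 2 the 7 cells give no usable level, since their intervals reach 57.9% for Ccr2 and 41.0% for Blk.

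With every cell thinned to 1000 UMIs, leaving out 13 and 14 shallower gated T cells, the shares fell. Thinned Cd40lg shares were 35.5% and 25% in gated T cells, against 25.7% and 23.1% in Cd4-positive Trac T cells, 21.8% and 15.4% in other Trac CD3 cells as a whole and 3.33% and 4.76% in gamma delta T cells. Thinned Ccr2 shares were 19.3% and 25.3% in gated T cells, against 5.45% and 9.76% in other Trac CD3 cells and 12.5% and 21.0% in gamma delta T cells. Blk alone was most frequent elsewhere, at 13.1% and 21.0% of gated T cells against 38.3% and 29.5% of gamma delta T cells. Thinned Zbtb16 shares were 10.8% and 24.4% in gated T cells, against 1.98% and 8.94% in other Trac CD3 cells and 7.5% and 20% in gamma delta T cells.

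**Figure D1:**
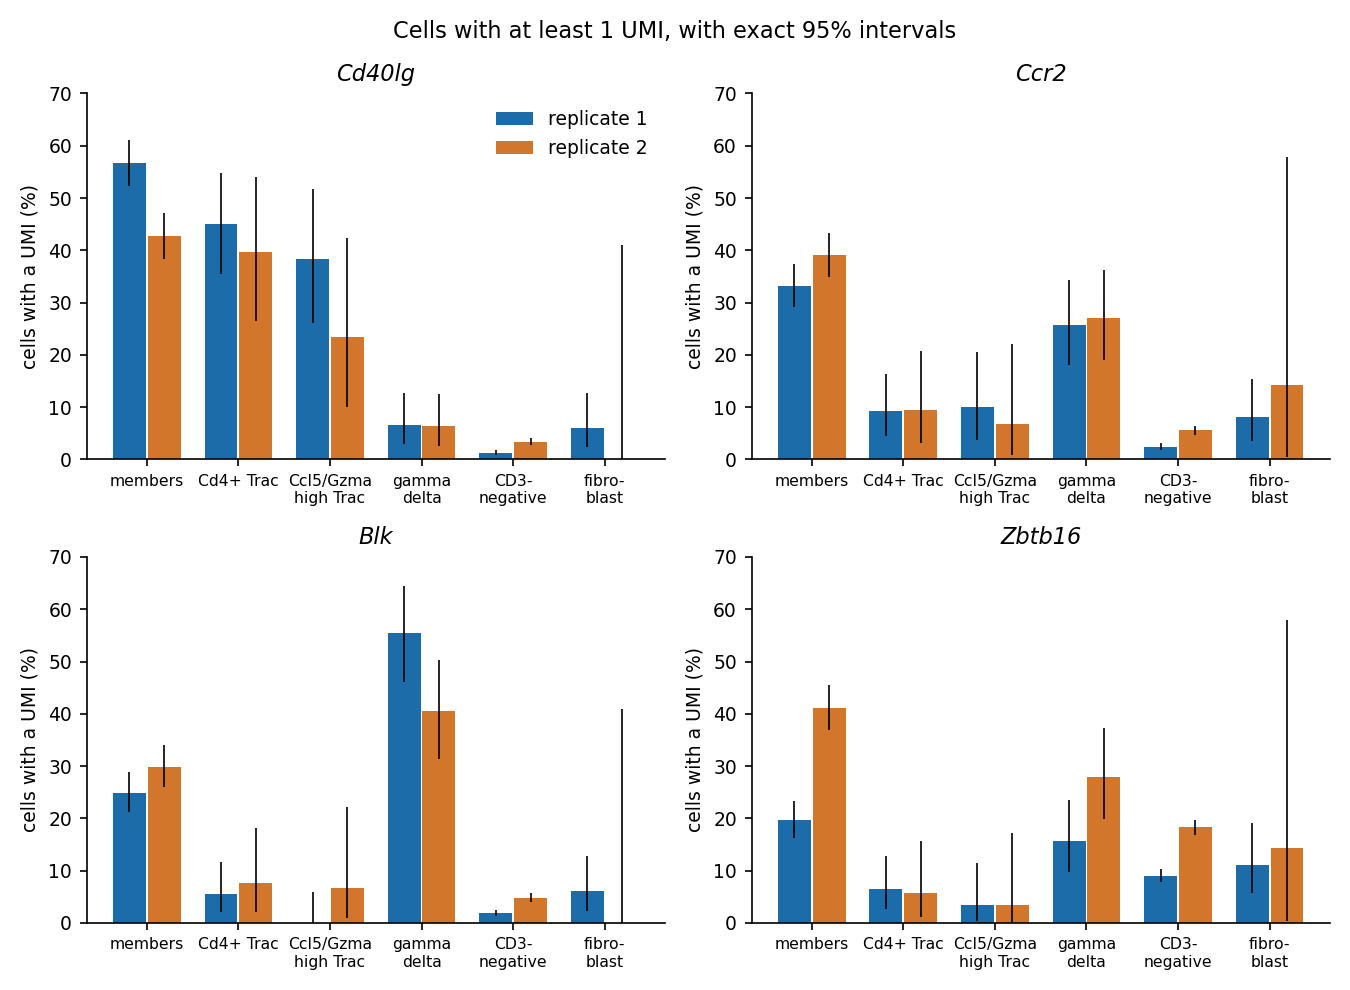
Percent of cells with at least 1 UMI of Cd40lg, Ccr2, Blk and Zbtb16 (y axis) in gated T cells (members, left), Cd4-positive and Ccl5 or Gzma high Trac T cells, gamma delta T cells, CD3-negative cells and cells with fibroblast transcripts. Bars are replicates 1 and 2, lines are exact 95% intervals of counting error, and the last set holds only 99 and 7 cells. Cd40lg reaches 56.7% and 42.7% in gated T cells and 6.61% and 6.31% in gamma delta T cells, whereas Blk is at 24.9% and 29.9% against 55.4% and 40.5%.

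In the mouse genome (build GRCm38, GENCODE M21 annotation) Trac lies on chromosome 14 from 54220521 to 54224206 and Blk on the same chromosome from 63372836 to 63417037. Ccr2 lies on chromosome 9 from 124101950 to 124113557, Zbtb16 on chromosome 9 from 48654297 to 48836222, Cd3e on chromosome 9 from 44998740 to 45009627, and Cd40lg on chromosome X from 57212143 to 57224042. The values are totals over each gene and do not part exons from introns.

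Receptor segments were seen in few cells. A UMI of any Trav segment was found in 14 and 13 gated T cells (2.72% and 2.52%) and of any Trbv segment in 25 and 29 (4.85% and 5.63%). In other Trac CD3 cells the counts were 6 and 4 for Trav (2.94% and 3.20%) and 20 and 7 for Trbv (9.80% and 5.6%). Gamma delta T cells had no cell with a Trav UMI, and 1 and 4 CD3-negative cells had one (0.0457% and 0.147%). Beta chain D and J segments were not tied to the gated T cells. Trbj1-1 was seen in 0 and 1 gated T cells and in 37 and 26 of all other kept cells, and Trbj1-2 in 1 and 3 gated T cells and in 27 and 41 others. Trbd1 was seen in 5 and 0 gated T cells and in 21 and 17 others. Too few cells carried a segment to describe a repertoire.

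Trav1, the variable segment used by mucosal-associated invariant T cells in mice, was the Trav segment seen in most gated T cells, with 4 cells in each replicate. Among the 6147 other kept cells it was seen in 1. Traj33, the joining segment known to pair with it, was seen in 0 and 4 gated T cells and in 1 and 4 other cells. Traj18, the joining segment of invariant natural killer T cells, was seen in 12 and 17 gated T cells (2.33% and 3.30%), against 5 and 2 other Trac CD3 cells (2.45% and 1.60%) and 16 and 15 of all other kept cells. Shares of Traj18 thus overlapped between the gated and the other Trac CD3 cells. Trav11, which pairs with Traj18, was not analysed here, while its near copy Trav11n was seen in 0 and 1 gated T cells.

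The next most frequent segments were Trav10 with 1 and 2 gated T cells, Trav13-1 with 0 and 2, Trav14n-3 with 2 and 0, and Trav16n with 1 and 1. Of beta chain segments, Trbv12-2 was seen in 8 and 6 gated T cells, Trbv19 in 2 and 7, Trbv13-2 in 3 and 3, Trbv2 in 5 and 1, and Trbv12-1 in 3 and 1. The gamma chain segment Trgv2 outnumbered them all, with 51 and 46 gated T cells (9.90% and 8.93%), against 35 and 16 other Trac CD3 cells (17.2% and 12.8%) and 9 and 11 gamma delta T cells (7.44% and 9.91%). Even Trgv2 was thus seen in few gated T cells, and its share was higher in the other Trac CD3 cells of both replicates.

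Joining segments seen in most gated T cells are shown with Traj33 as the receptor sequences these counts bear on. Traj12 and Traj27 were chosen after their counts were seen, and Traj4, not shown, was seen in as many gated T cells as Traj27. All lie on the plus strand of chromosome 14, Traj18 at 54200777 to 54200842, Traj12 at 54206553 to 54206610, Traj27 at 54192303 to 54192361 and Traj33 at 54185358 to 54185414. They are given 5′ to 3′ from the GENCODE M21 transcripts (GRCm38). Capitals mark the bases coding for the Phe/Trp-Gly-X-Gly motif of joining segments, found by search of the plus strand in 44 of the 51 annotated Traj segments (86.3%).
Traj18: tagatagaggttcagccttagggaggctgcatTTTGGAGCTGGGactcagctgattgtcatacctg
Traj12: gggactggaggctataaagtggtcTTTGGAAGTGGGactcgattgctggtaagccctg
Traj27: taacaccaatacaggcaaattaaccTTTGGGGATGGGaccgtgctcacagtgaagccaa
Traj33: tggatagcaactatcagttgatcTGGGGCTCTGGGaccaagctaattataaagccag
Traj12 was seen in 4 and 6 gated T cells and Traj27 in 3 and 4, against 9 and 7 and 5 and 7 of all other kept cells. The first 3 segments carry the phenylalanine form of the motif and Traj33 the tryptophan form.

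The first comparison set the gated T cells against all other kept cells, most of them CD3-negative ILCs. Of 10204 genes tested, 14.4% passed the test, 6.72% with higher and 7.72% with lower levels in the gated T cells (edgeR, adjusted p below 0.05). The gated T cells had more transcripts of Trbc2, Icos, Ctla4, Ifng and Il17a. They also had more of Cd40lg and Ccr2, which were chosen as markers and are described only. They had fewer of Trbc1, Il22, Kit, Ncr1, Nos2 and the receptor adaptor Fcer1g. Replicates gave ratios of the same sign for each of these genes. The gate on Trac and CD3 itself favours genes of the receptor machinery.

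Most of the receptor signalling genes that passed were higher. Of 20 genes of T cell receptor signalling and the T cell surface, 12 rose, 1 fell and 7 did not pass, with a median log2 ratio of 0.92, against -0.0033 over all genes tested. Trbc2, a beta chain constant gene, had 1324 and 1127 CPM in gated T cells, against 572 and 584 CPM in all other kept cells (log2 ratio 1.13 ± 0.07, SE, edgeR adjusted p = 9.00e-63). Its near copy Trbc1 had 333 and 295 CPM in gated T cells, against 447 and 427 CPM in all other kept cells (-0.42 ± 0.08, edgeR adjusted p = 5.78e-06). The pair thus moved in opposite directions without overlap between the sets, though reads can be split between such near copies.

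Lat, the scaffold that links the receptor to its effectors, had 465 and 424 CPM in gated T cells, against 139 and 132 CPM in all other kept cells (log2 ratio 1.76 ± 0.09, edgeR adjusted p = 2.36e-86). Bcl11b, a factor of T cell commitment, had 306 and 260 CPM, against 103 and 103 CPM (1.51 ± 0.10, edgeR adjusted p = 2.20e-50). In both genes both samples of gated T cells lay above both samples of the other cells. Cd28, the costimulatory receptor, had 281 and 194 CPM in gated T cells, against 76.2 and 50 CPM in all other kept cells (1.96 ± 0.11, edgeR adjusted p = 6.98e-67). Sit1, an inhibitory adaptor of the receptor, had 142 and 60.3 CPM, against 30.2 and 15.48 CPM (2.19 ± 0.17, edgeR adjusted p = 1.98e-34). Levels of both were higher in replicate 1 in either set, and the gated T cells were higher within each replicate.

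Of 8 genes on a list of Src kinases and receptor adaptors, 5 rose and 3 fell, with kinases and adaptors on both sides. Blk, a chosen marker, is among the 5. Over all genes tested, 6.72% rose and 7.72% fell. Lck had 511 and 575 CPM in gated T cells, against 254 and 250 CPM in all other kept cells (log2 ratio 1.15 ± 0.08, edgeR adjusted p = 2.38e-44). Fcer1g, an adaptor of natural killer and Fc receptors, had 128 and 83.4 CPM in gated T cells, against 1259 and 950 CPM in all other kept cells (-3.34 ± 0.09, edgeR adjusted p = 3.28e-283). Tyrobp, a further adaptor, had 6.79 and 1.00 CPM, against 42.7 and 29.1 CPM (-3.09 ± 0.37, edgeR adjusted p = 9.28e-15). The adaptor gene Hcst rose instead, with 333 and 296 CPM in gated T cells, against 242 and 212 CPM (0.52 ± 0.09, edgeR adjusted p = 7.58e-08), and the kinase gene Lyn fell, with 19.5 and 14.1 CPM, against 62.5 and 111 CPM (-2.26 ± 0.21, edgeR adjusted p = 1.55e-24). Samples of the 2 sets did not overlap in any of these genes. Blk, whose ratio is a description, had 176 and 256 CPM in gated T cells, against 50 and 70.5 CPM in all other kept cells, a log2 ratio of 1.89.

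Cd40lg and Ccr2, also described without a test, were among the 3 genes with the largest ratios. Cd40lg had 451 and 343 CPM in gated T cells, against 61.3 and 64.0 CPM in all other kept cells, a log2 ratio of 2.71. Ccr2 had 243 and 369 CPM in gated T cells, against 50.9 and 86.8 CPM in all other kept cells, a log2 ratio of 2.21. The ratio of each held its direction in both replicates, at log2 values of 2.92 and 2.45 for Cd40lg and 2.30 and 2.12 for Ccr2. Besides Sit1, Cd28 and Blk, others among the 10 genes with the largest ratios were Ly6g5b (log2 ratio 2.30), Crybg1 (2.08), the gamma chain genes Tcrg-C2 (2.03) and Trgv2 (1.99), and Lgals3 (1.89), which encodes a galectin.

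Of 17 costimulation and checkpoint genes tested, 4 rose, 5 fell and 8 did not pass, against 6.72% higher and 7.72% lower over all genes tested. Cd40lg, a chosen marker, is among the 4. Icos, a costimulatory receptor, had 2166 and 3188 CPM in gated T cells, against 1134 and 1856 CPM in all other kept cells (log2 ratio 0.91 ± 0.05, edgeR adjusted p = 2.07e-62). Ctla4, an inhibitory receptor, had 570 and 587 CPM, against 207 and 218 CPM (1.5 ± 0.08, edgeR adjusted p = 5.38e-73). The sets did not overlap in either gene. Ccr9, the receptor for small-intestinal homing, had 99.2 and 75.3 CPM in gated T cells, against 378 and 267 CPM in all other kept cells (-1.83 ± 0.11, edgeR adjusted p = 3.24e-60). Itga4, a subunit of the gut-homing integrin, had 51.7 and 28.1 CPM, against 185 and 114 CPM (-1.85 ± 0.15, edgeR adjusted p = 1.02e-32). Its partner subunit gene Itgb7 was slightly higher, with 590 and 402 CPM in gated T cells, against 474 and 362 CPM (0.29 ± 0.08, edgeR adjusted p = 0.00242), with overlap across replicates. Itgb7 was chosen after its values were seen. Of 18 chemokine receptor and homing genes tested, 5 rose, 6 fell and 7 did not pass, with a median log2 ratio of -0.04. The same shares over all genes tested apply here. Ccr2, a chosen marker, is among the 5.

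Of 13 cytokine genes tested, 2 rose, 5 fell and 6 did not pass, against 6.72% higher and 7.72% lower over all genes tested. Ifng had 120 and 134 CPM in gated T cells, against 48.1 and 58.8 CPM in all other kept cells (log2 ratio 1.30 ± 0.13, edgeR adjusted p = 4.82e-20). Il17a had 55.1 and 81.4 CPM, against 24.1 and 24.8 CPM (1.51 ± 0.19, edgeR adjusted p = 4.71e-14). Few cells made up these sums, since Il17a was detected in 3.88% and 7.96% of gated T cells (2.19% and 4.79% thinned), against 2.02% and 0% of cells with fibroblast transcripts. One cell of replicate 1 held 29.2% of the Il17a UMIs of that sum. Ifng UMIs were spread over 84 and 89 cells.

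Il22, whose product drives epithelial defence, was lower in gated T cells. It had 583 and 462 CPM in gated T cells, against 1941 and 2152 CPM in all other kept cells (log2 ratio -1.92 ± 0.06, edgeR adjusted p = 4.62e-189). An Il22 UMI was found in 28.0% and 22.5% of gated T cells and in 46.5% and 28.6% of the cells with fibroblast transcripts, so the share in gated T cells cannot be read as expression above background. One cell held 15.3% and 11.3% of the Il22 UMIs of the gated T cells in replicates 1 and 2. Csf2, a myeloid growth factor, had 75.5 and 94.4 CPM in gated T cells, against 160 and 384 CPM in all other kept cells (-1.55 ± 0.11, edgeR adjusted p = 3.14e-40). Il17f gave 65.3 and 16.1 CPM, against 48.6 and 53.0 CPM, with no steady ratio, and 1 cell held 48.1% of its UMIs in replicate 1.

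ILC3 identity genes were lower in part. Of 18 such genes, 2 rose, 10 fell and 6 did not pass (median log2 ratio -0.27), against 6.72% higher and 7.72% lower over all genes tested. Kit, the receptor for stem cell factor, had 72.1 and 67.3 CPM in gated T cells, against 330 and 259 CPM in all other kept cells (-2.03 ± 0.12, edgeR adjusted p = 1.32e-65). Ncr1, an activating receptor, had 16.1 and 12.1 CPM, against 156 and 93.2 CPM (-3.10 ± 0.20, edgeR adjusted p = 2.20e-50). The Kit share of gated T cells, 11.5% and 10.7%, was below the 27.3% of the cells with fibroblast transcripts in replicate 1. In contrast Il23r, the IL-23 receptor gene, had 134 and 147 CPM in gated T cells, against 145 and 146 CPM, and did not pass (-0.01 ± 0.11, edgeR adjusted p = 0.982).

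The cells with fibroblast transcripts also held an Il7r UMI in 62.6% and 42.9%, so they were not free of lymphocyte RNA. Zbtb16 had 120 and 354 CPM in gated T cells, against 58.8 and 157 CPM in all other kept cells (log2 ratio 1.17 ± 0.11, edgeR adjusted p = 1.80e-26). Its level was higher in replicate 2 in both sets, so that the sets overlap when the replicates are pooled, but the ratio within replicates was 1.08 and 1.21. Gata3 did not pass, with 78.9 and 103 CPM, against 88.9 and 112 CPM (-0.09 ± 0.13, edgeR adjusted p = 0.771).

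Immediate early and heat shock genes, which mark recent stimulation or handling, were lower in the gated T cells. Of 20 genes, 2 rose, 13 fell and 5 did not pass, with a median log2 ratio of -0.32. Over all genes tested, 6.72% were higher and 7.72% lower. Nr4a1, a nuclear receptor induced by receptor signals, had 941 and 669 CPM in gated T cells, against 1392 and 1266 CPM in all other kept cells (-0.69 ± 0.06, edgeR adjusted p = 4.23e-25). Atf3, a stress-induced factor, had 228 and 159 CPM, against 452 and 384 CPM (-1.07 ± 0.09, edgeR adjusted p = 8.87e-30). None of the 9 tested genes of Cxxc1 and the SETD1 complex, the chromatin factor the series is named for, passed, and their median log2 ratio was 0.10. For a gene that did not pass, equal levels are not shown.

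**Figure D2:**
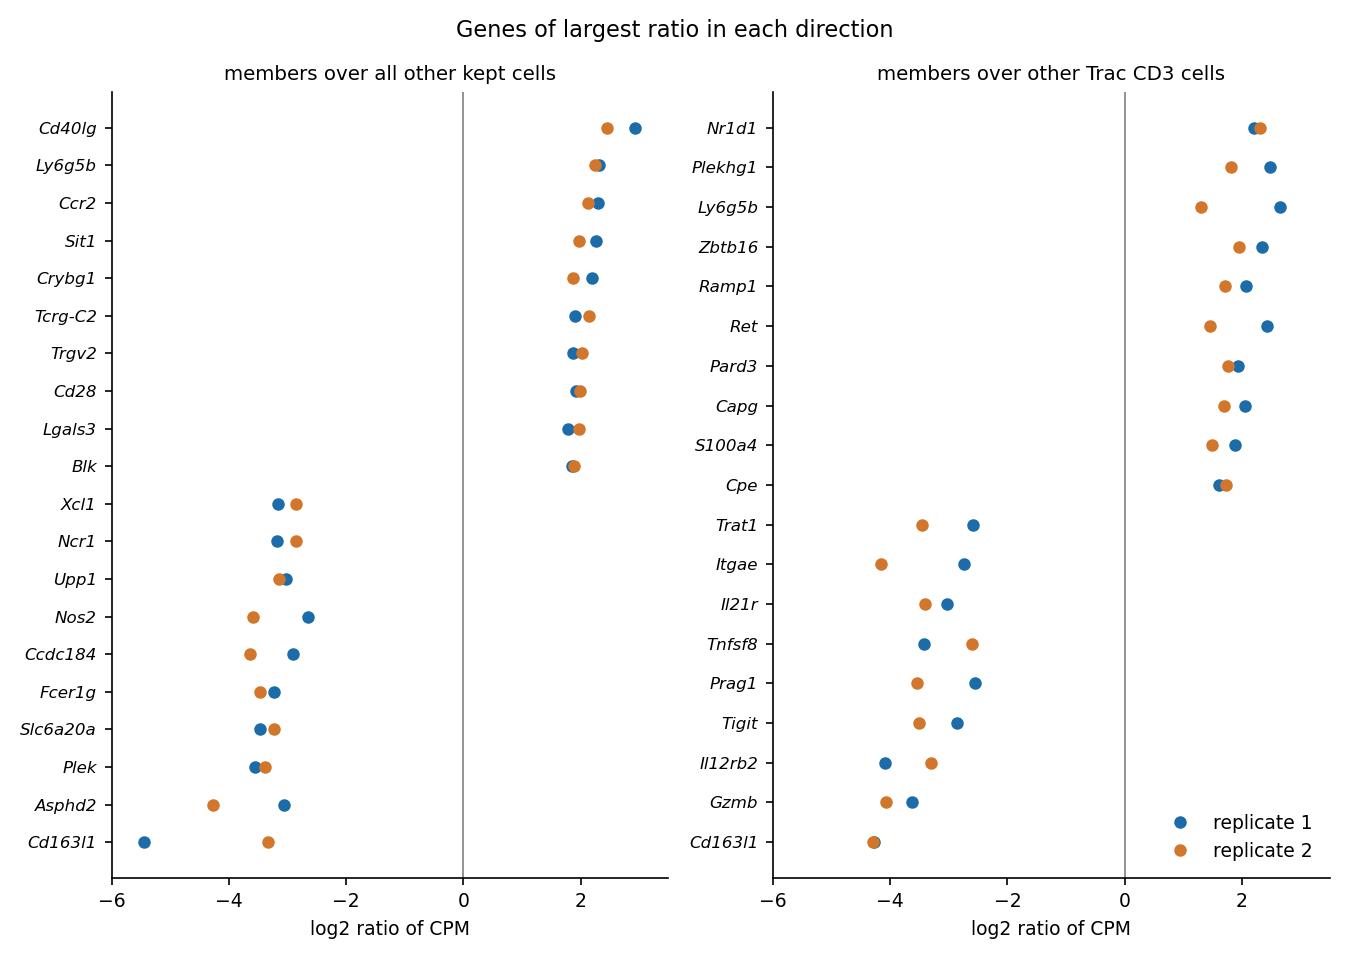
Log2 ratio of CPM (x axis) in each replicate for the 10 genes with the highest and the 10 with the lowest ratios among genes past the test, gated T cells over all other kept cells (left) and over other Trac CD3 cells (right, with 1 of the lower genes not shown). Every gene keeps its side of 0 in both replicates because the choice required it. Cd40lg is at 2.92 and 2.45 on the left, and Zbtb16 at 2.34 and 1.96 on the right.

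These calls rest on the sample block. With the sample term left out, no gene passed in either direction against all other kept cells (edgeR; 243 higher and 438 lower at an unadjusted p below 0.05), while DESeq2 with the block called 282 higher and 275 lower.

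The second comparison set the gated T cells against the other Trac CD3 cells, those with Cd4, with Ccl5 or Gzma, or with Trdc, 204 and 125 cells in replicates 1 and 2. Of 6783 genes tested, 5.48% passed, 2.86% higher and 2.62% lower in gated T cells (edgeR). Counts of list genes in this comparison are to be read against these shares. Of the type 17 program, the set tied to IL-23 and IL-17, 11 of 21 genes were higher in the gated T cells, and Zbtb16, Capg and S100a4 were higher too. Gzmb, Il12rb2, Il21r, Tigit, Cd8a and Cd8b1 were lower. Levels of Ifng, Il17a, Tbx21 and the Trbc genes did not pass.

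Of 21 type 17 genes tested, 11 rose, 1 fell and 9 did not pass, with a median log2 ratio of 0.88, against 0.0041 over all genes tested. Blk and Ccr2, both chosen as markers, are among the 11. Il1r1, the receptor for IL-1, had 323 and 327 CPM in gated T cells, against 93.6 and 164 CPM in other Trac CD3 cells (1.48 ± 0.19, edgeR adjusted p = 0.000115). Its level was higher in each sample of gated T cells than in either sample of the other Trac CD3 cells. Tmem176a, a membrane channel gene, had 1444 and 1026 CPM, against 637 and 467 CPM (1.22 ± 0.14, edgeR adjusted p = 3.84e-05). Its neighbour Tmem176b had 1586 and 990 CPM, against 717 and 582 CPM (1.04 ± 0.14, edgeR adjusted p = 0.000232).

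Others of this list were less steady. Il23r had 134 and 147 CPM in gated T cells, against 55.8 and 116 CPM in other Trac CD3 cells (log2 ratio 0.88 ± 0.23, edgeR adjusted p = 0.0283), and the call was lost with another scaling and with DESeq2. Cxcr6, a chemokine receptor of tissue-resident cells, had 885 and 1822 CPM, against 390 and 1258 CPM (0.91 ± 0.15, edgeR adjusted p = 0.00137), with higher levels in replicate 2 in both sets. Ccr2 and Blk, described only, had log2 ratios of 1.23 and 1.10. Blk stood at 176 and 256 CPM, against 49.8 and 190 CPM, and without cells holding a gamma constant UMI its ratio was 0.54. The member of the list that fell, Il22, had 583 and 462 CPM, against 697 and 1090 CPM (-0.66 ± 0.17, edgeR adjusted p = 0.0315), a call lost with DESeq2 and with another scaling.

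Zbtb16, the factor of innate-like T cells, had 120 and 354 CPM in gated T cells, against 21.9 and 97.1 CPM in other Trac CD3 cells (log2 ratio 2.15 ± 0.22, edgeR adjusted p = 1.08e-05). Both gated samples lay above both others. Of 10 innate-like T cell genes tested, 3 rose, Zbtb16, Icos and Cxcr6, while Plac8 fell and 6 did not pass. Plac8, a gene of effector and myeloid cells, had 64.5 and 48.2 CPM, against 376 and 474 CPM (-2.81 ± 0.18, edgeR adjusted p = 5.30e-08). Capg, an actin-capping protein gene, had 277 and 229 CPM, against 65.7 and 74.7 CPM (1.95 ± 0.20, edgeR adjusted p = 1.04e-05). S100a4, a calcium-binding protein gene of migrating cells, had 131 and 72.3 CPM, against 33.9 and 26.1 CPM (1.85 ± 0.27, edgeR adjusted p = 0.000422). Neither pair of samples overlapped the other set for Capg or S100a4.

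Nr1d1, a repressor of the circadian clock, had 174 and 146 CPM in gated T cells, against 35.8 and 29.9 CPM in other Trac CD3 cells (log2 ratio 2.33 ± 0.24, edgeR adjusted p = 1.18e-05). Ret, the receptor for glial-derived neurotrophic factors, had 234 and 221 CPM, against 41.8 and 85.9 CPM (2.03 ± 0.23, edgeR adjusted p = 4.20e-05). Ramp1, a subunit of the receptor for the neuropeptide CGRP, had 109 and 73.3 CPM, against 23.9 and 22.4 CPM (2.07 ± 0.30, edgeR adjusted p = 0.000364). All 3 were higher in each gated sample than in either sample of the other set, which their choice by ratio and sign favours. Plekhg1 (2.26), Ly6g5b (2.17), the polarity gene Pard3 (1.99) and the peptide-processing gene Cpe (1.77) made up the rest of the 10 genes with the largest ratios.

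Of 16 CD8 and cytotoxic genes tested, none rose, 8 fell and 8 did not pass, with a median log2 ratio of -1.28. The gate takes out cells with Ccl5 or Gzma, which go with such genes. Gzmb, the gene of granzyme B, had 63.6 and 55.3 CPM in gated T cells, against 826 and 1049 CPM in other Trac CD3 cells (-3.88 ± 0.17, edgeR adjusted p = 4.13e-10). Xcl1, a chemokine gene, had 38.2 and 45.2 CPM, against 303 and 172 CPM (-2.49 ± 0.24, edgeR adjusted p = 5.74e-06). Cd8a had 116 and 30.1 CPM, against 335 and 116 CPM (-1.58 ± 0.18, edgeR adjusted p = 4.29e-05), and its levels touched, since replicate 1 was above replicate 2 in both sets. Ifng was no part of this, at 120 and 134 CPM, against 141 and 153 CPM (-0.16 ± 0.18, edgeR adjusted p = 0.762).

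Of 16 cytokine receptor genes tested, 3 rose, 4 fell and 9 did not pass, among them Il12rb1, Il18r1, Ifngr1 and Il2rb. Il12rb2, a chain of the IL-12 receptor, had 14.4 and 30.1 CPM in gated T cells, against 291 and 347 CPM in other Trac CD3 cells (log2 ratio -3.81 ± 0.23, edgeR adjusted p = 1.69e-08). Il21r, the IL-21 receptor gene, had 77.2 and 49.2 CPM, against 657 and 597 CPM (-3.24 ± 0.17, edgeR adjusted p = 3.66e-09). Tigit, an inhibitory receptor, had 8.48 and 7.03 CPM, against 79.7 and 116 CPM (-3.51 ± 0.36, edgeR adjusted p = 1.04e-05). In these genes no gated sample came near a sample of the other set. Trat1, an adaptor that steadies the receptor, had 45.0 and 32.1 CPM, against 287 and 414 CPM (-3.05 ± 0.21, edgeR adjusted p = 8.52e-08). Ccr9 was 99.2 and 75.3 CPM, against 506 and 396 CPM (-2.30 ± 0.16, edgeR adjusted p = 8.39e-08).

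Itgae, which encodes the CD103 integrin of intraepithelial cells, had 28.8 and 1.00 CPM in gated T cells, against 211 and 67.2 CPM in other Trac CD3 cells (log2 ratio -3.16 ± 0.33, edgeR adjusted p = 1.17e-05). Il21, a helper cytokine, had no UMI in any gated T cell, against 21.9 and 26.1 CPM in other Trac CD3 cells, and a count of 0 in 515 cells allows a share of cells with a captured UMI of up to 0.583%, which does not limit the share of cells expressing the gene. Il10, a suppressive cytokine, had 1.70 and 1.00 CPM, against 19.9 and 33.6 CPM (-3.99 ± 0.75, edgeR adjusted p = 0.00326), but DESeq2 did not call it. Csf2 rose instead, with 75.5 and 94.4 CPM, against 37.8 and 33.6 CPM (1.24 ± 0.28, edgeR adjusted p = 0.0120), also without a DESeq2 call. Cd247, the zeta chain of the receptor complex, was lower in gated T cells at 56.0 and 57.3 CPM, against 135 and 228 CPM (-1.55 ± 0.21, edgeR adjusted p = 0.000201). The other 2 genes of that list, Trbc1 and Trbc2, did not pass.

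**Figure D3:**
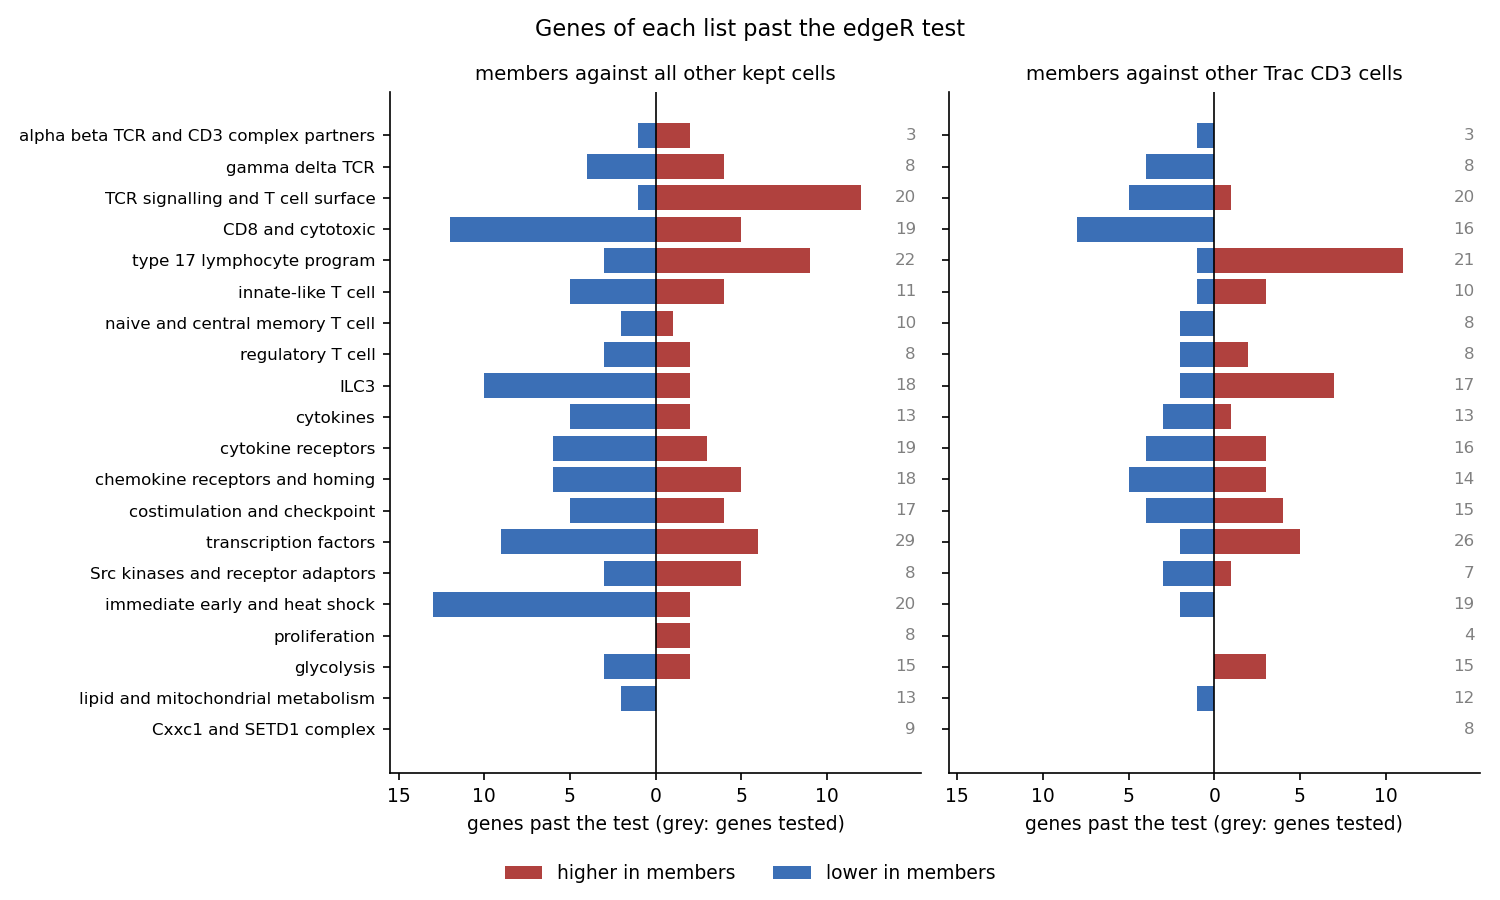
Number of genes past the edgeR test in each gene list (x axis, right of 0 higher and left of 0 lower in gated T cells), against all other kept cells (left) and other Trac CD3 cells (right). Grey numbers give the genes tested, and the counts include the chosen markers Cd40lg, Ccr2 and Blk. Of the type 17 list 9 rose and 3 fell on the left and 11 rose and 1 fell on the right, while no CD8 or cytotoxic gene rose on the right.

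Without the sample term 6 genes still passed in this comparison, all lower in gated T cells, Gzmb, Il12rb2, Tigit, Il21r, Trat1 and Plac8 (edgeR; 241 higher and 226 lower at an unadjusted p below 0.05), and with DESeq2 54 higher and 61 lower genes did.

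The other Trac CD3 cells consist of Cd4-positive cells, Ccl5 or Gzma high cells and 35 and 42 cells with a Trdc UMI, which were not compared on their own. Against the 109 and 53 Cd4-positive Trac T cells, 6.83% of 5259 tested genes passed, 3.88% higher and 2.95% lower in gated T cells (edgeR, 1 fit over 7 sets of cells that share no cell). The type 17 list gave 12 higher and 1 lower of 20, with a median log2 ratio of 1.35. Blk and Ccr2, both described only, are among the 12. Il1r1 had 323 and 327 CPM in gated T cells, against 97.7 and 76.7 CPM in Cd4-positive Trac T cells (1.89 ± 0.27). Capg had 277 and 229 CPM, against 58.6 and 19.2 CPM (2.55 ± 0.29), and Gpr183, a receptor for oxysterols that guides lymphocytes in the gut, had 587 and 652 CPM, against 246 and 201 CPM (1.46 ± 0.19). None of these 3 overlapped. Cd40lg, described only, did not mark the gated T cells off from this set, with 451 and 343 CPM in gated T cells, against 313 and 364 CPM in Cd4-positive Trac T cells. Il12rb2 had 14.4 and 30.1 CPM in gated T cells, against 453 and 585 CPM (-4.53 ± 0.25), and Il21r had 77.2 and 49.2 CPM, against 633 and 853 CPM (-3.40 ± 0.22). Hk2, the gene of a hexokinase, had 771 and 713 CPM, against 313 and 201 CPM (1.54 ± 0.20).

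Against the 60 and 30 Ccl5 or Gzma high Trac T cells, 6.08% of the genes passed, 3.59% higher and 2.49% lower in gated T cells (edgeR). Of 20 type 17 genes 12 rose and none fell, with a median log2 ratio of 1.83. The chosen markers Blk and Ccr2 are again among the 12. Il1r1 had 323 and 327 CPM in gated T cells, against 45.0 and 85.2 CPM (2.58 ± 0.36), and Tmem176a had 1444 and 1026 CPM, against 392 and 239 CPM (2.02 ± 0.21). Cd40lg, described only, had 451 and 343 CPM in gated T cells, against 250 and 136 CPM in Ccl5 or Gzma high Trac T cells. Of 15 CD8 and cytotoxic genes 9 fell and none rose, a direction the gate itself favours. Plac8 had 64.5 and 48.2 CPM in gated T cells, against 450 and 1057 CPM (-3.45 ± 0.38). Ifng had 120 and 134 CPM, against 161 and 119 CPM, with no call and overlapping samples.

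Gamma delta T cells, which have Trdc and CD3 but no Trac UMI, lie outside the other Trac CD3 cells. Against the 121 and 111 of them 0.723% of the genes passed, 0.285% higher and 0.437% lower in gated T cells (15 and 23 genes, edgeR). That share cannot be set beside the others as a degree of likeness, since the sets differ in cells and in spread, and the difference between comparisons was not tested. Of 20 type 17 genes none was higher, 1 was lower, the chosen marker Blk, and 19 did not pass, with a median log2 ratio of 0.16. A gene that misses the test is not thereby shown to be alike. Lck had 511 and 575 CPM in gated T cells, against 219 and 183 CPM in gamma delta T cells (log2 ratio 1.41 ± 0.18). Ifng had 120 and 134 CPM, against 25.1 and 19.3 CPM (2.46 ± 0.41), and Ctla4 had 570 and 587 CPM, against 280 and 236 CPM (1.14 ± 0.17). Each of these was higher in both gated samples than in either gamma delta sample. Cd40lg, described only, had 451 and 343 CPM, against 43.0 and 33.7 CPM, and Blk had 176 and 256 CPM, against 495 and 453 CPM. Cd247 had 56.0 and 57.3 CPM in gated T cells, against 237 and 236 CPM (-2.07 ± 0.23), and Ccr9 had 99.2 and 75.3 CPM, against 287 and 294 CPM (-1.73 ± 0.20).

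**Figure D4:**
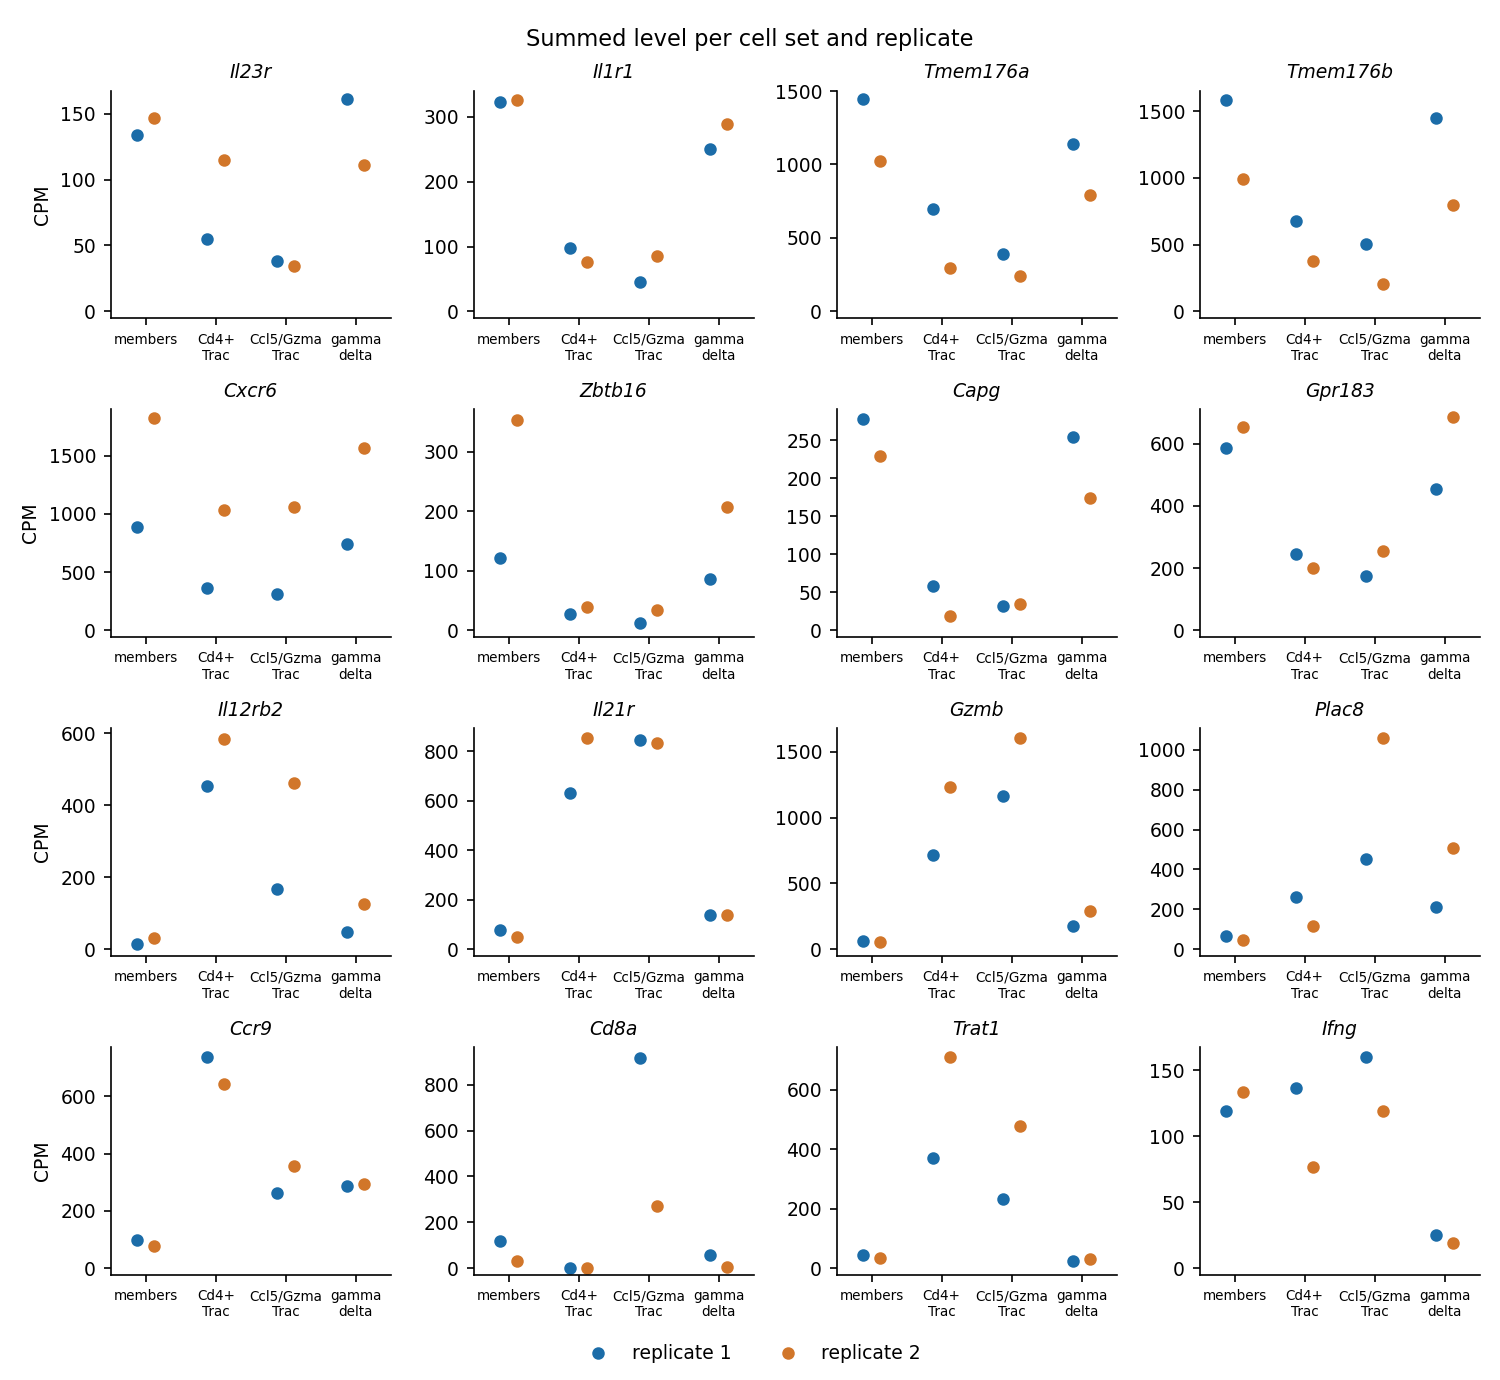
Level of 16 genes in CPM (y axis, linear, from 0) in the sums over gated T cells (members, left), Cd4-positive Trac T cells, Ccl5 or Gzma high Trac T cells and gamma delta T cells, 1 point per replicate. Il1r1 and Capg are high in gated and gamma delta T cells and low in both other Trac sets. Il12rb2 and Il21r are lower in gated T cells than in both other Trac sets. Il12rb2 is also lower than in gamma delta T cells, at 14.4 and 30.1 CPM against 46.6 and 125 CPM (log2 ratio -1.91 ± 0.36). Ifng is at 120 and 134 CPM in gated T cells against 25.1 and 19.3 CPM in gamma delta T cells.

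UMIs of the gamma chain constant genes were found in most gated T cells, but also in many cells of other sets. A UMI of Tcrg-C1, Tcrg-C2 or Tcrg-C4, which are similar in sequence so that reads may be split among them, was found in 79.4% and 62.9% of the gated T cells. Tcrg-C1 alone was found in 64.9% and 48.9% of them (44.2% and 32.5% thinned), against 32.6% and 28.0% of CD3-negative cells (21.7% and 19.8% thinned) and 21.2% and 14.3% of the cells with fibroblast transcripts. Tcrg-C1 had 628 and 463 CPM in gated T cells, against 199 and 173 CPM in Cd4-positive Trac T cells (log2 ratio 1.64 ± 0.24, edgeR adjusted p = 9.00e-05). It had 1685 and 983 CPM in gamma delta T cells, so that the gated T cells lay below them (-1.29 ± 0.18, edgeR adjusted p = 0.000108). In CD3-negative cells it had 306 and 268 CPM. Other Trac CD3 cells had 400 and 631 CPM of Tcrg-C1, and this comparison did not pass. Its log2 ratio was 0.66 and -0.32 in replicates 1 and 2. Ccl5 or Gzma high Trac T cells had 257 and 477 CPM (0.85 ± 0.25, edgeR adjusted p = 0.0476), the higher CPM in replicate 2. Gated T cells thus lay above CD3-negative cells and below gamma delta T cells in both replicates, and so did the other Trac CD3 cells.

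Cd163l1, a scavenger receptor gene of IL-17-producing gamma delta T cells, was among the genes that differed most. It had 0.848 and 5.02 CPM in gated T cells, against 910 and 622 CPM in gamma delta T cells (log2 ratio -8.08 ± 0.40), and was found in 0.194% and 0.777% of gated T cells against 62.8% and 47.7% of gamma delta T cells. Sox13, a factor of the same cells, was found in 0.388% and 0.194% against 19.8% and 11.7%. Not every gene of that list was so low. The transcript 5830411N06Rik, chosen after its values were seen, had 59.4 and 47.2 CPM in gated T cells, against 24.8 and 25.6 CPM in all other kept cells, where it passed (1.13 ± 0.20, edgeR adjusted p = 3.49e-07), and against 115 and 145 CPM in gamma delta T cells, where it did not (-1.25, edgeR adjusted p = 0.174). Of the 8 gamma delta genes tested against gamma delta T cells, none rose, 5 fell and 3 did not pass, against 0.437% lower over all genes tested. The gates themselves favour this direction, since gated T cells hold no Trdc UMI and gamma delta T cells hold at least 1.

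**Figure D5:**
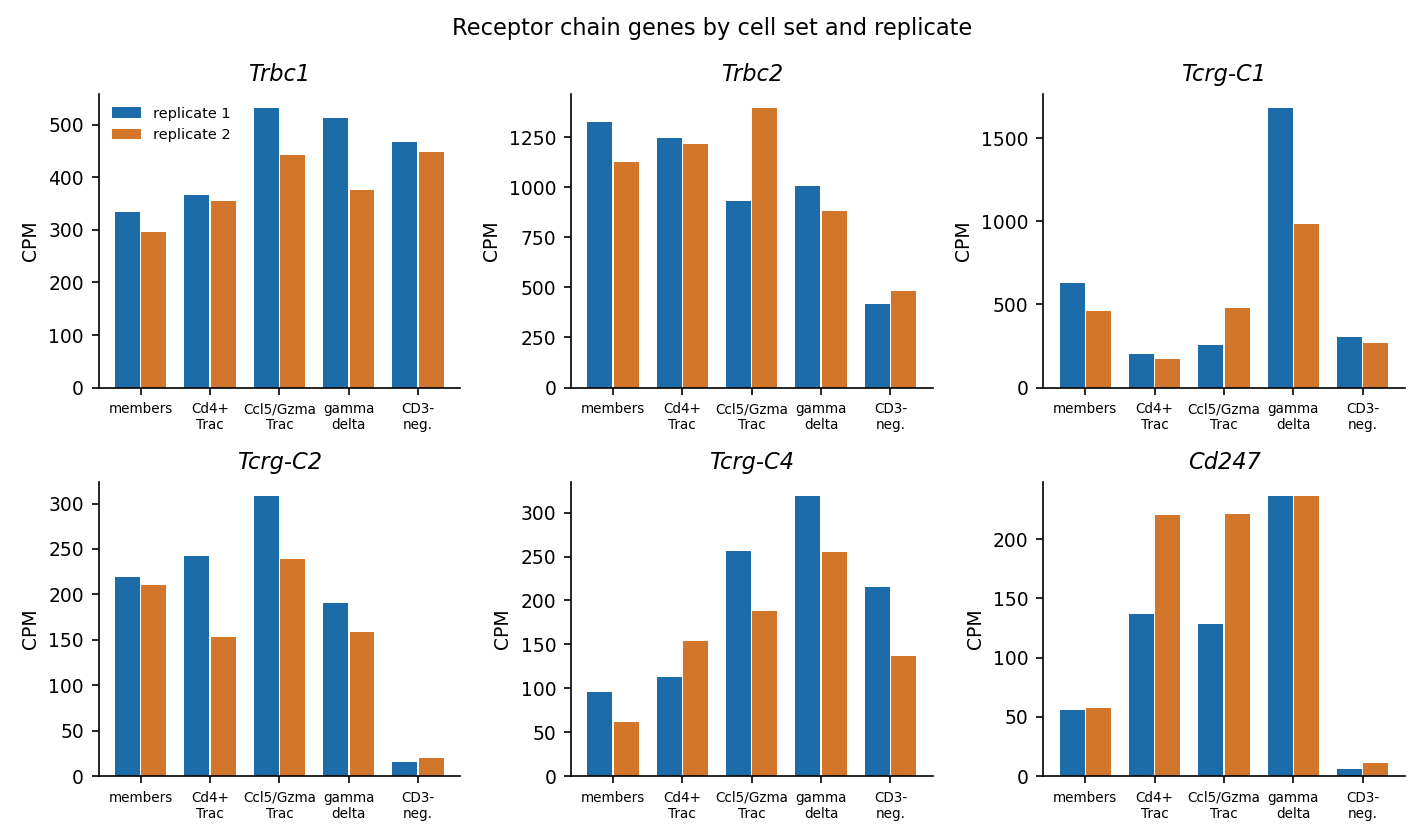
Level in CPM (y axis, from 0, its own scale in each panel) of the receptor chain genes Trbc1, Trbc2, Tcrg-C1, Tcrg-C2, Tcrg-C4 and Cd247 in gated T cells (members, left), Cd4-positive Trac T cells, Ccl5 or Gzma high Trac T cells, gamma delta T cells and CD3-negative cells, with 1 bar per replicate. Cd247 stands at 56.0 and 57.3 CPM in gated T cells, below each other T cell set, and Tcrg-C1 at 628 and 463 CPM lies between CD3-negative and gamma delta T cells.

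Within the gated T cells, the overlap of effector and factor genes is given as a description of cells of the same sample, without a test. Il17a or Il17f UMIs were found in 32 and 50 gated T cells and Ifng UMIs in 84 and 89, and 4 and 12 cells held both. That is 12.5% and 24.0% of the cells with Il17a or Il17f, against 16.6% of the rest in each replicate, so the replicates differ in direction. Of the cells with Il17a or Il17f, 37.5% and 58.0% also held a Zbtb16 UMI, against 18.4% and 39.4% of the gated T cells without Il17a or Il17f. A Blk UMI was found in 53.1% and 46.0% of the same Il17a or Il17f cells, against 23.0% and 28.2% of the rest. Cells with Il17a or Il17f were somewhat deeper, at medians of 2292 and 2163.5 UMIs.

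Cells with a Zbtb16 UMI carried a Ccr2 UMI in 46.5% and 43.4%, against 30.0% and 36.0% of gated T cells without one. Among the 67 and 30 cells with a CD8 gene, Ccr2 was found in 13.4% and 33.3%, against 36.2% and 39.4% of the rest, and Blk in 10.4% and 36.7%, against 27.0% and 29.5%. The CD8-bearing cells thus held Ccr2 less often in both replicates, by little in replicate 2, while Blk was less frequent in them in replicate 1 and more frequent in replicate 2. Of the 12 and 11 cells with an Ncr1 UMI, 8 and 9 also held Il22, and their median depth was 3047 and 3122 UMIs, above the 2028 and 1795 of all gated T cells.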

How the data were processed

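The authors deposited, per the file headers, UMI counts per cell and gene from version 1.8 of the BD Rhapsody WTA pipeline run on GRCm38 with PhiX and GENCODE M19, corrected for substitution errors and not normalized. HISAT2 2.0.5, Bowtie2 and the builds GRCm38.p6 and mm10 are listed in the submitters' processing notes. Whether counting used strand is not given in the sources used here. Cells came from sample tag 6 (replicate 1) and tag 12 (replicate 2), 3427 and 3954 cells with 7011649 and 6845914 UMIs. The 3337 and 3840 cells with 300 or more genes and no more than 25% mitochondrial UMIs were kept, and tag multiplets were left out with no other doublet caller. A looser filter tried took 200 genes and 50%, the stricter 500 and 10%.

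Counts were summed per replicate and set of cells and tested with edgeR 4.0.16 (R 4.3.3), TMM scaling, filterByExpr, the quasi-likelihood test and the sample as a block, since both sums of a replicate come from 1 library. Fits had 1 residual degree of freedom per gene, or 6 in the fit over 7 sets, with the spread shared across genes. P-values were adjusted by Benjamini-Hochberg over all tested genes except the 8 gate genes, at 0.05. Ratios of single replicates used a prior count of 2. DESeq2 1.42.0 was an alternative. On simulated counts edgeR recovered 99% of 2-fold changes against all other kept cells, 87% against other Trac CD3 cells and 63% against Cd4-positive Trac T cells. Changes were placed only in genes above 50 CPM, so these rates do not cover genes of lower level. The simulated spread (dispersion) lay above the fitted 0.0037 of the first comparison and below the fitted 0.0073 and 0.0090 of the others. Cells with fibroblast transcripts had 3 or more UMIs of Col1a1, Col1a2 and Col3a1 and none of Ptprc.

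Named genes were the markers given, the 10 highest and 10 lowest ratios among called genes of at least 50 CPM with the same sign in both samples, up to 4 per direction of each list, and receptor segments. Members, lists and rules were chosen with earlier results of these data known. Some genes are not reported here.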

Additional observations from a re-analysis of the deposited data

How the results depend on the processing

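The share of gated T cells, 14.4% of kept cells on average, was 13.4% to 15.4% with 1 replicate left out. It was 11.9% with the stricter cell filter, 9.26% at 2 or more Trac UMIs, 4.08% without cells holding a gamma constant UMI, 12.5% with a Trbc UMI required and 9.59% when cells were thinned to 1000 UMIs before gating. Cd40lg shares were 42.7% to 56.7% with 1 replicate left out and 30.2% thinned. Ccr2 shares (36.1%) were 33.2% to 39.0%, 30.1% without gamma constant UMIs and 22.3% thinned, and Blk shares (27.4%) were 24.9% to 29.9%, 19.6% and 17.1%. Zbtb16 shares were 19.6% to 41.2%.

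Counts of genes past the test depended on the sample term. With no replicate block in edgeR, 0 genes were higher and 0 lower against all other kept cells, 0 and 6 against other Trac CD3 cells, 32 and 38 against Cd4-positive, 32 and 24 against Ccl5 or Gzma high Trac T cells, and 2 and 6 against gamma delta T cells. The main counts were 686 and 788, 194 and 178, 204 and 155, 189 and 131, and 15 and 23. DESeq2 gave 282 and 275 against all other kept cells, all of them also called by edgeR, and 54 and 61 against other Trac CD3 cells. Against all other kept cells, genes higher were 334 with no low-count filter, 385 with the stricter cell filter and 438 thinned, and without gamma constant UMIs 248 rose and 333 fell. Against other Trac CD3 cells, RLE scaling gave 110 and 115, no gamma constant UMI 109 and 90, and genes higher were 292 at no Ccl5 or Gzma UMI and 320 without the 5% deepest cells. Against Ccl5 or Gzma high cells, thinning gave 122 and 81 and the stricter filter 80 lower, and against gamma delta T cells no filter gave 27 and 38 and leaving out the 5% deepest cells 37 lower. The causes were not tested. Leaving out a replicate leaves no residual degree of freedom, so it gives ratios without a test. Genes set by an alternative's own gate have no value under it.

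Reversal of log2 ratios was checked for all named genes of the first 2 comparisons and for only some of the others. A reversal was counted only for a gene that passed the test in the main or the alternative fit. The reversed ratios found that way belong to genes on the lists of other cell types. Genes of other lists that passed also changed sign between replicates. Against Ccl5 or Gzma high Trac T cells, Id3 was -2.26 and 0.59 in replicates 1 and 2, Igfbp4 -1.60 and 1.01, and Ahr -1.98 and 0.035. Some named genes that did not pass changed sign too. In the comparison with other Trac CD3 cells, Il17f was 2.04 and -2.40 in replicates 1 and 2, and Tbx21 -0.24 and 1.15. Gata3 was -0.52 and 0.32 there, and Tcrg-C1 0.66 and -0.32. Against all other kept cells, Igkc was 0.78 without the 5% deepest cells, Sparc 0.57 without replicate 1 and -0.79 without replicate 2, and Calca -0.021 with the stricter filter. Against other Trac CD3 cells, Igkc was -1.69 without gamma constant UMIs and Igha -0.0544 thinned, -0.69 at 2 Trac UMIs, -1.50 without gamma constant UMIs and -0.81 without the 5% deepest cells. H2-Ab1 was 0.63, 1.01 and 0.61 thinned, without the 5% deepest cells and without replicate 1, and -0.98 without replicate 2. Col1a1 was -0.15 thinned, -1.04 at 2 Trac UMIs, -0.83 without gamma constant UMIs, -1.03 with a Trbc UMI, -0.18 without the 5% deepest cells -0.58 without replicate 1 and 0.83 without replicate 2.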
